A study of Mus musculus with 6 samples.

Results

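Matrix metalloproteinases (MMPs) and their inhibitors were compared between an adult-derived and an embryonic-derived mouse hypothalamic cell line. The genes were 6 MMPs (Mmp2, Mmp3, Mmp9, Mmp11, Mmp14 and Mmp23), 3 tissue inhibitors of metalloproteinases (Timp1, Timp2 and Timp3) and Reck. They were taken by name as genes of this protease system, with earlier results of these data known. All 22 probe sets that the platform annotation names for exactly 1 of them were used, among 20380 probe sets with 1 gene. All 10 genes were measured, of 12393 in the whole table, and no filter on low values was applied.

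Line A_212 came from adult hypothalamus and N_46 from embryonic hypothalamus. Both express neuropeptide Y according to their labels, and both were immortalised by overexpressed SV40 T-antigen, so there is no array of cells without the viral protein. RNA of 3 plates per line, at 70% confluence in medium with 5% fetal bovine serum, was hybridised to 6 arrays, and the labels describe no other treatment. Each age of origin is represented by 1 line, so age cannot be told apart from other properties of these lines, and p-values measure the spread between plates, which may be technical.

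MMPs are secreted or membrane-bound zinc endopeptidases that cleave collagens, laminins, proteoglycans and cell surface proteins. They are made as inactive precursors whose propeptide must be removed, and they are held in check by TIMPs, which bind the active site, and by the membrane-anchored glycoprotein RECK. In the nervous system, MMPs are known for their part in cell migration, axon growth, synaptic remodelling and opening of the blood-brain barrier.

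The values are log2 values centred on 0 for each probe set, so 0 is the median of the 6 arrays and no value is an expression level. Whether a gene was expressed in either line, or which of 2 genes was more abundant, cannot be read from them. Differences are A_212 minus N_46 in log2 units, with the standard error (SE) of a limma fit over 12393 genes on 3 arrays per line, and adjusted p-values are Benjamini-Hochberg values over all these genes, with 0.05 as the threshold. The base 2 of the logarithm, on which every fold rests, was taken from the method named for these data and is not stated.

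Of the 10 genes, 7 passed the threshold, where 39.2% of all genes tested did. Mmp2, Mmp3, Mmp14, Mmp23, Timp2 and Reck were higher in A_212, which makes 6 of 10 against 18.3% of all genes, and Timp3 alone was higher in N_46, 1 of 10 against 20.9%. Mmp9, Mmp11 and Timp1 did not pass. A_212 and N_46 had no overlap between their arrays for 8 of the 10 genes, against 51.1% of all genes, and 5 genes (Mmp2, Mmp3, Mmp23, Timp3 and Reck) passed with at least a 2-fold difference, against 5.83% of all genes. The median difference was 0.45 over the 10 genes and -0.06 over all genes. Because the 10 genes were chosen with earlier results of these data known, these shares may partly reflect that choice. Among 13 other MMP and Timp4 genes measured, 3 were higher in A_212 and 0 in N_46, with a median of -0.02. In extracts of whole cultures, a smaller share of cells expressing a gene and less RNA per cell cannot be told apart.

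**Figure D1:**
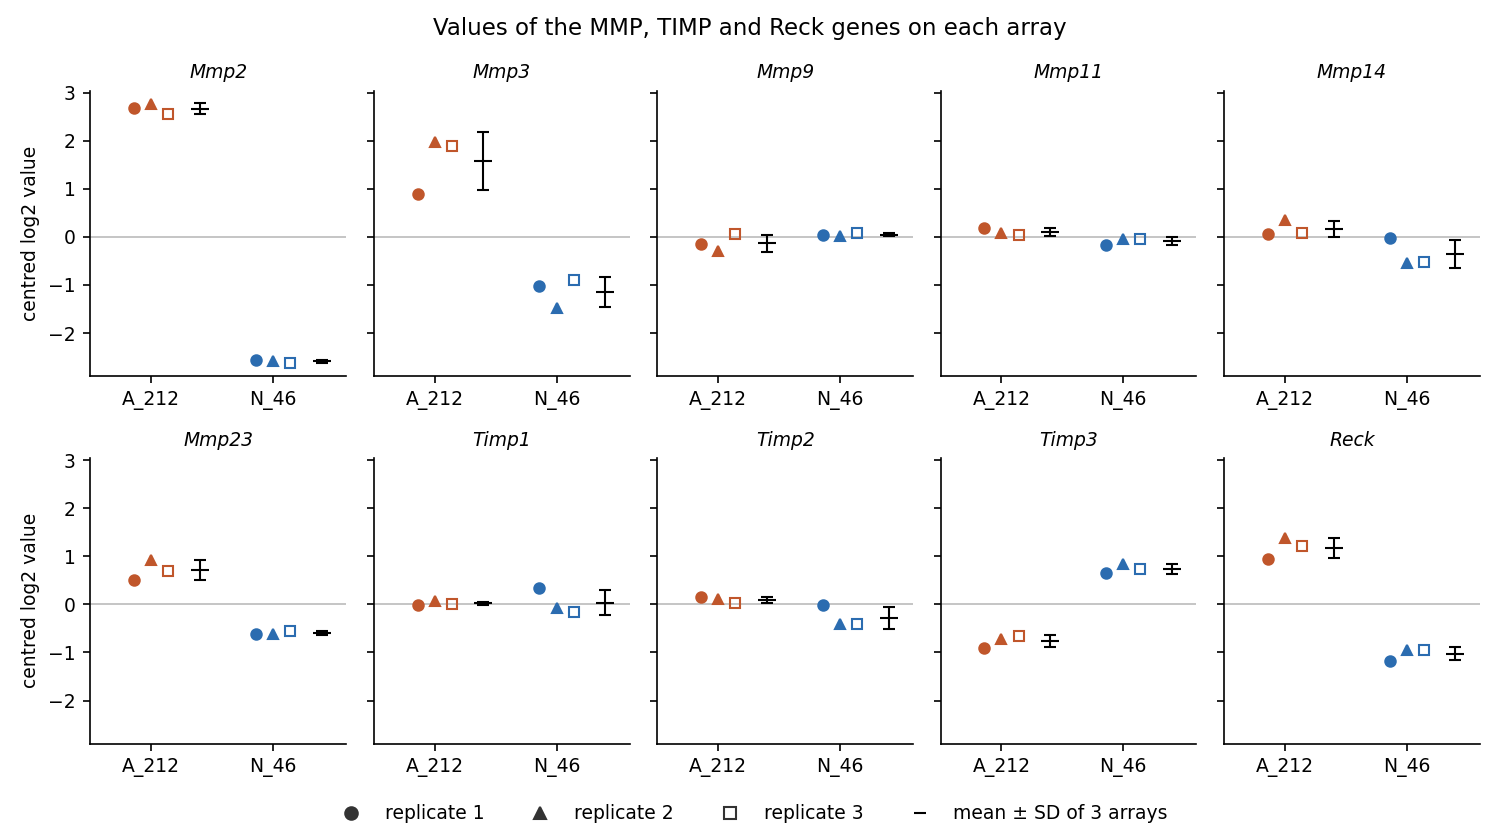
Centred log2 value (vertical axis, one scale for all panels) of each gene on the 3 arrays of A_212 and the 3 arrays of N_46, with the mean and SD of each line as a bar. Mmp2 lies at 2.56 or above in A_212 and at -2.57 or below in N_46, Timp3 is the gene with its A_212 values below its N_46 values by more than 1 log2 unit, and N_46 replicate 1 lies above its line's other arrays for Mmp14, Timp1 and Timp2.

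The gelatinases degrade denatured collagen and the type IV collagen of basement membranes. Mmp2, gelatinase A, had centred values of 2.68, 2.77 and 2.56 in A_212, against -2.57, -2.57 and -2.63 in N_46. The lines stood far apart and the arrays of each line lay close together, with a mean of 2.67 ± 0.11 in A_212 and -2.59 ± 0.03 in N_46 (SD, n = 3 each). The difference was 5.26 ± 0.08 (SE; 95% interval 5.09 to 5.43), a 38.4-fold higher value in A_212 with a limma adjusted p of 3.3e-11, and it ranked 2 among all 12393 genes for excess in A_212. Its 2 probe sets gave 5.15 and 5.38.

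Mmp9, gelatinase B, is an inducible gelatinase studied in inflammation and synaptic plasticity. It had values of -0.15, -0.30 and 0.05 in A_212, against 0.03, 0.02 and 0.08 in N_46. The lines overlapped, with A_212 replicate 3 inside the range of N_46. The difference of -0.18 ± 0.09 (95% interval -0.38 to 0.03) did not pass in limma (adjusted p = 0.16), and it passed when A_212 replicate 3 was left out (-0.27, adjusted p = 0.022) and with array weights (-0.22, adjusted p = 0.041). Both probe sets had negative differences, -0.15 and -0.20. The interval of Mmp9 thus excludes a difference in array values of the size seen for Mmp2, and it does not show equal expression. Whether these probe sets read above background in either line cannot be told from centred values.

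The stromelysins have a broad range of matrix substrates. Mmp3, stromelysin 1, cleaves proteoglycans, laminin and other MMP precursors. Its values were 0.89, 1.98 and 1.89 in A_212, against -1.03, -1.49 and -0.89 in N_46. The lines did not overlap, but A_212 replicate 1 lay about 1 log2 unit below the other arrays of its line, and the SD of 0.60 in A_212 was the largest of the 10 genes. The difference was 2.72 ± 0.25 (95% interval 2.16 to 3.28), 6.59-fold, with a limma adjusted p of 1.2e-05. It was read by 1 probe set, and lay between 2.53 and 3.07 when any 1 array was left out.

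Mmp11, stromelysin 3, is a stromal MMP whose precursor is activated inside the cell by furin. It had values of 0.19, 0.08 and 0.04 in A_212, against -0.18, -0.05 and -0.04 in N_46. All values of A_212 were above those of N_46 by a small margin. The difference of 0.19 ± 0.08 (95% interval 0.02 to 0.36) did not pass after adjustment (limma adjusted p = 0.074), and it passed when the arrays were set to the same median (0.22, adjusted p = 0.044) or given weights (0.18, adjusted p = 0.050).

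Mmp14 and Mmp23 encode membrane-bound proteases. Mmp14, membrane type 1 MMP, cleaves fibrillar collagen at the cell surface and activates the precursor of Mmp2 in a complex with Timp2. Its values were 0.06, 0.35 and 0.08 in A_212, against -0.03, -0.53 and -0.53 in N_46. N_46 replicate 1 lay close to A_212, and the other arrays of N_46 lay about 0.50 log2 units lower. The difference was 0.52 ± 0.14 (1.44-fold, limma adjusted p = 0.011), with 0.69 (adjusted p = 0.00060) without N_46 replicate 1 and 0.43 (adjusted p = 0.051) without A_212 replicate 2, where the call ended.

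Mmp23 encodes a short MMP that is anchored by its propeptide and released when that is cleaved. It had values of 0.51, 0.93 and 0.70 in A_212, against -0.62, -0.62 and -0.55 in N_46. The lines were fully separate, and N_46 varied less between arrays than A_212. The difference was 1.31 ± 0.10 (95% interval 1.09 to 1.54), 2.48-fold, with a limma adjusted p of 3.0e-06, and its probe sets gave 1.21 and 1.41.

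Of the 4 inhibitors, Timp2 and Reck were higher in A_212, Timp3 was higher in N_46 and Timp1 did not pass. Timp1, an inducible secreted inhibitor that also acts as a growth factor, had values of -0.005, 0.07 and 0.005 in A_212, against 0.34, -0.07 and -0.15 in N_46. The 3 arrays of A_212 lay within the range of N_46, and N_46 replicate 1 was the highest array. The difference was -0.02 ± 0.12 (95% interval -0.28 to 0.24, limma adjusted p = 0.92), and it turned to 0.13 (adjusted p = 0.21) without N_46 replicate 1, to 0.08 with array weights and to 0.01 with arrays set to the same median.

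Timp2 encodes the inhibitor that links Mmp14 to the precursor of Mmp2. It had values of 0.15, 0.11 and 0.02 in A_212, against -0.007, -0.41 and -0.41 in N_46. As for Mmp14, N_46 replicate 1 lay next to A_212 and the other 2 arrays of N_46 lay lower. The difference was 0.37 ± 0.11 (1.29-fold, limma adjusted p = 0.020). The call was lost without A_212 replicate 1 (0.34, adjusted p = 0.059), without A_212 replicate 2 (0.36, adjusted p = 0.059), without N_46 replicate 2 (0.30, adjusted p = 0.078) and without N_46 replicate 3 (0.30, adjusted p = 0.079). Without N_46 replicate 1, the difference was 0.50 (adjusted p = 0.00084).

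**Figure D2:**
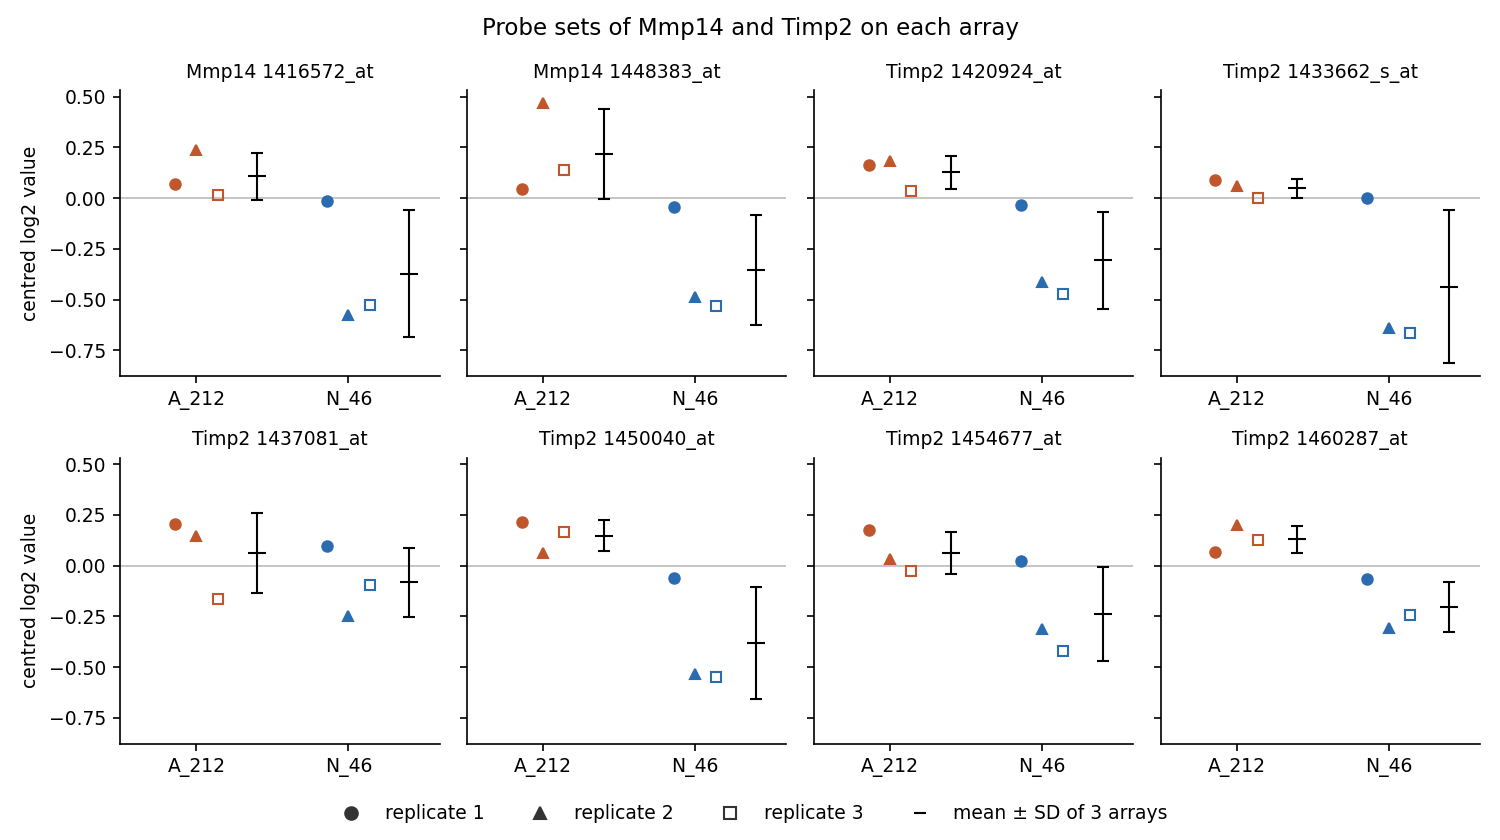
Centred log2 value (vertical axis) of the 2 probe sets of Mmp14 and the 6 probe sets of Timp2 on each array of A_212 and N_46, with the mean and SD of each line as a bar. In all 8 panels N_46 replicate 1 is the highest array of its line, and the Timp2 differences run between 0.14 and 0.53.

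The 6 probe sets of Timp2 all had positive differences, from 0.14 to 0.53, of which 4 passed in a limma fit over 22626 probe sets. The exceptions were the probe sets with differences of 0.14 (adjusted p = 0.38) and 0.30 (adjusted p = 0.071). Over the 10 genes, 16 of 22 probe sets passed, where 36.0% of all probe sets did, and A_212 and N_46 had no overlap for 17 of 22, against 48.7% of all probe sets. Probe sets of the same gene had the same sign for each of the 6 genes with several.

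Over the whole table, N_46 replicate 1 correlated across genes at 0.82 and 0.83 with replicates 2 and 3, which correlated with each other at 0.92. The A_212 arrays correlated with each other at 0.80, 0.84 and 0.86, so 0.82 and 0.83 lay within that range. N_46 replicate 1 lay 0.50 above the mean of its line's replicates 2 and 3 for Mmp14, 0.45 for Timp1 and 0.40 for Timp2. The median size of this gap over all genes was 0.09. These gaps were larger in size than those of 98.7%, 98.1% and 97.1% of all genes. The mean signed gap of this array was 0.40 over 8 smooth muscle and pericyte markers and 0.12 over 14 fibroblast and mesenchymal markers. Most of the smooth muscle markers, but not all, were higher on this array than on the line's other arrays. Tagln (-0.66 against -1.87 and -2.01) and Myl9 (-0.43 against -1.37 and -1.57) lay well above them. So did Acta2 (-0.03 against -0.55 and -0.50) and Actg2 (-1.81 against -2.35 and -2.36). Rgs5 and Des lay above them by small margins, and Myh11 lay between them. Cnn1 (-1.52 against -1.34 and -1.15) lay below them. The part of these markers in the Mmp14, Timp1 and Timp2 values was not tested. For Mmp2 (0.03), Mmp9 (-0.01) and Mmp23 (-0.03) the gap was below the median size.

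Timp3 is the TIMP that binds to the extracellular matrix, and it inhibits ADAM and ADAMTS proteases besides MMPs. It had values of -0.91, -0.71 and -0.66 in A_212, against 0.65, 0.85 and 0.73 in N_46. No array of A_212 came near N_46, and the arrays of each line lay within a narrow range. The difference was -1.50 ± 0.09 (95% interval -1.70 to -1.31), a 2.84-fold lower value in A_212 with a limma adjusted p of 3.9e-07, and it ranked 122 among all genes for excess in N_46. Its 4 probe sets gave -1.43, -1.29, -1.36 and -1.94, and all 4 passed.

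Reck encodes a membrane-anchored inhibitor of Mmp2, Mmp9 and Mmp14 that is also a Wnt7 co-receptor in brain vessel formation. It had values of 0.95, 1.37 and 1.21 in A_212, against -1.17, -0.95 and -0.95 in N_46. The lines were separate on every array. The difference was 2.20 ± 0.11 (95% interval 1.95 to 2.45), 4.59-fold, with a limma adjusted p of 1.1e-07, read by 1 probe set. Reck and Timp3 are both metalloproteinase inhibitors, and their differences had opposite signs.

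**Figure D3:**
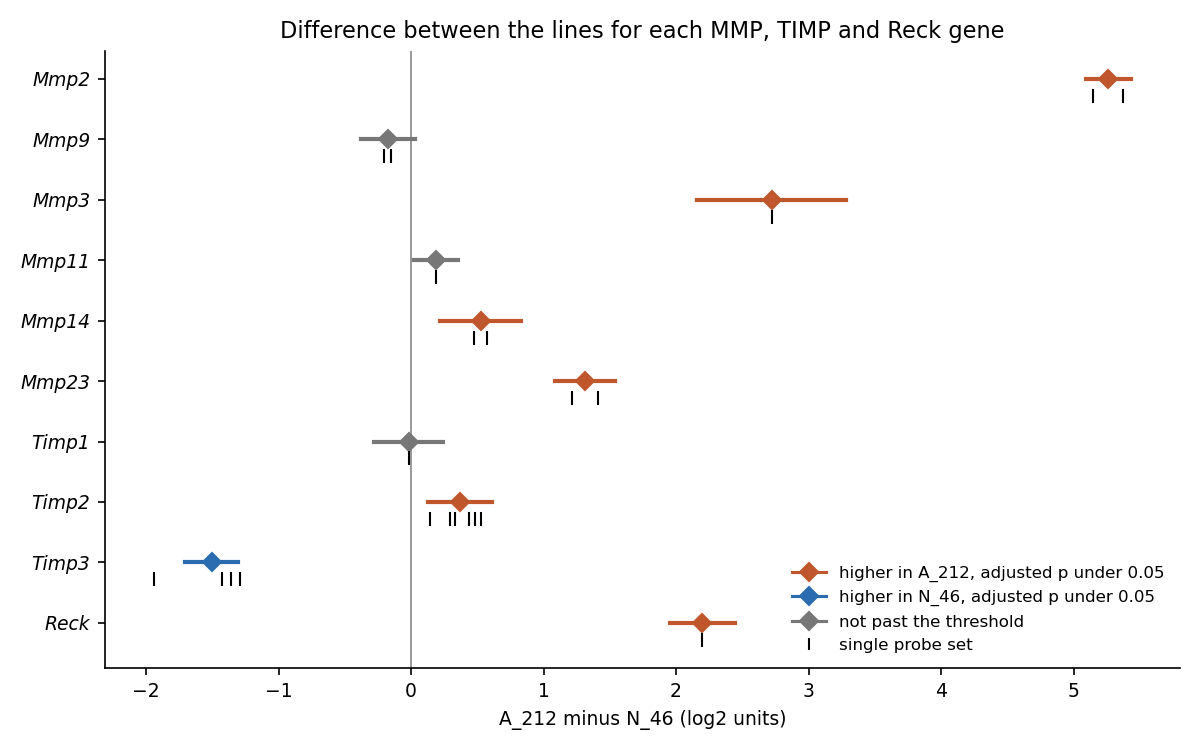
Difference between the lines (A_212 minus N_46, log2 units, horizontal axis) for each gene, with diamonds for the gene value, horizontal lines for the 95% interval of the limma fit and ticks for its probe sets. Mmp2 (5.26), Mmp3 (2.72) and Reck (2.20) have the largest differences above 0, and Timp3 (-1.50) has the one interval that lies wholly below 0.

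Promoter sequence from RefSeq (GRCm38.p6) was matched by symbol for 8 of the 10 genes. Mmp2, which had the largest difference, and Mmp9 had no match, so neither is in the motif counts of the 10 genes. The 250 bases before the annotated start are shown for Mmp3, Reck and Timp3, the genes with a matched promoter that differed most in each direction. Capitals mark matches on either strand to 3 motifs, the AP-1 motif TGANTCA, the GC box GGGCGG that Sp1 family factors bind, and TATAAA.

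Mmp3, chr9:7445572-7445821, plus strand: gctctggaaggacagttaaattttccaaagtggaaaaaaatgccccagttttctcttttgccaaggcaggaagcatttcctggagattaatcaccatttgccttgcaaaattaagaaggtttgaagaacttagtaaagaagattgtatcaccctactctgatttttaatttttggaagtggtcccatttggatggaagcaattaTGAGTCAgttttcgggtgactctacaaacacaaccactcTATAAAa

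Reck, chr4:43875280-43875529, plus strand: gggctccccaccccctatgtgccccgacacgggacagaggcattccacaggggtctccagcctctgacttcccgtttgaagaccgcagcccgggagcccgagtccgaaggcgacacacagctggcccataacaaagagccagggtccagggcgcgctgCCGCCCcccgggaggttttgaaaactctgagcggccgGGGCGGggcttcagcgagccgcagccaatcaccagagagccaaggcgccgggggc

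Timp3, chr10:86300162-86300411, plus strand: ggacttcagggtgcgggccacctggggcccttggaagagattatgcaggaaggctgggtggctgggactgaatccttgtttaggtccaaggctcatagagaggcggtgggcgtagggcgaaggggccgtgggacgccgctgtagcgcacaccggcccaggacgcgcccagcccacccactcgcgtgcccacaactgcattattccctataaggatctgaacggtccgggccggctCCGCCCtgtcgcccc

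The Mmp3 window held an AP-1 match that begins 46 bases before the start and a TATAAA match that begins 7 bases before it, and no GC box. Its GC content was 37.6%, against 68.4% for Reck and 65.6% for Timp3 and a median of 52.4% over all windows. The Reck window held 2 GC boxes, which begin 92 and 55 bases before the start, and the Timp3 window held 1, at 15 bases. Among 9 windows of the 8 genes (Mmp23 had 2), 1 held the AP-1 motif, 1 held TATAAA and 6 held the GC box. Over all 32851 RefSeq windows of this length the shares were 6.75%, 12.4% and 32.7%. Timp3 and Reck, whose differences had opposite signs, thus both had GC-rich windows with a GC box. A match describes letters and does not show binding.

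Other genes of the system were described from lists of related genes. Over all genes, 39.2% passed in limma, 18.3% higher in A_212 and 20.9% higher in N_46. Of 13 further MMPs and Timp4 measured among 18 listed, 3 were higher in A_212, 0 were higher in N_46 and 10 did not pass in limma. At an unadjusted p under 0.05 the counts were 3 and 1, and the median difference was -0.02. Mmp19, a widely expressed MMP, differed by 1.03 ± 0.10 (adjusted p = 1.8e-05) and Mmp16, membrane type 3 MMP, by 0.98 ± 0.08 (adjusted p = 5.7e-06). Mmp13, a collagenase, had values of 0.07, 1.11 and 1.22 in A_212, against -0.19, -0.13 and -0.07 in N_46. As for Mmp3, A_212 replicate 1 lay lowest in its line. Its difference of 0.93 ± 0.24 (adjusted p = 0.010) lost its call without A_212 replicate 2 (0.78, adjusted p = 0.050) or 3 (0.72, adjusted p = 0.054), and was 1.30 (adjusted p = 1.8e-06) without A_212 replicate 1.

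Mmp3 and Mmp13 belong to a run of 10 neighbouring MMP genes on chromosome 9, with no other protein-coding gene between them in RefSeq. In the order Mmp13, Mmp12, Mmp1b, Mmp3, Mmp1a, Mmp10, Mmp8, Mmp20 and Mmp7, the differences were 0.93, 0.01, 0.07, 2.72, -0.14, -0.11, 0.02, -0.23 and -0.11. Mmp27, between Mmp8 and Mmp20, was not analysed here. Of these 9 genes Mmp3 and Mmp13 passed in limma, and the genes that adjoin each of them did not.

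**Figure D4:**
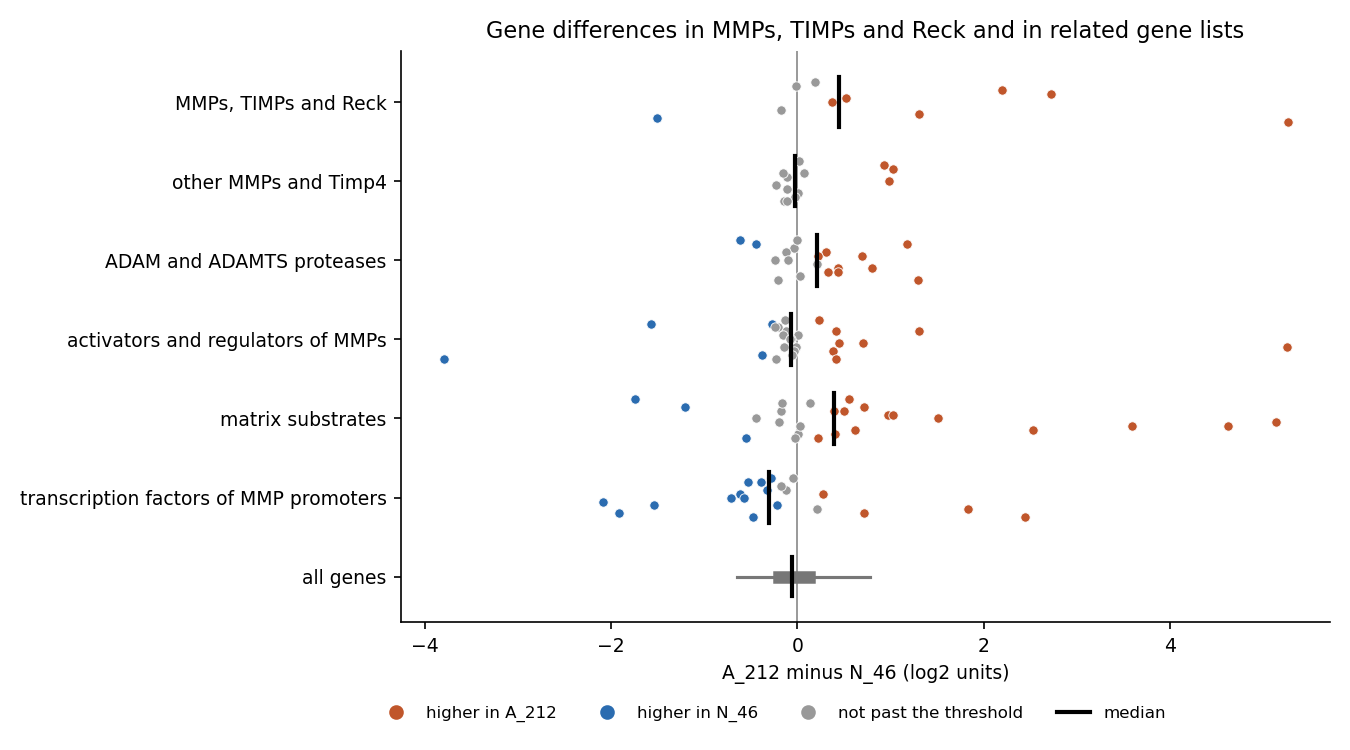
Difference between the lines (A_212 minus N_46, log2 units, horizontal axis) for each gene of the MMP, TIMP and Reck group and of 5 related lists, with a black bar at each median. The bottom row gives the median, the middle 50% (thick line) and the middle 90% (thin line) of all 12393 genes. The medians are 0.45 for the MMP, TIMP and Reck genes, 0.39 for matrix substrates and -0.30 for transcription factors of MMP promoters.

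The ADAM and ADAMTS proteases are relatives of the MMPs that shed surface proteins and cleave proteoglycans, and several are inhibited by Timp3. The list used for them also held Bmp1 and Tll1, which are not ADAM or ADAMTS genes. Of all 19 measured, 9 were higher in A_212 (against 18.3% of all genes), 2 in N_46 (against 20.9%) and 8 did not pass. Their median difference was 0.21. The aggrecanase gene Adamts4 (1.29 ± 0.12) and Adam19 (1.17 ± 0.09) led one direction, followed by Adamts7 (0.80) and Adamts10 (0.70). Adam12 (-0.61 ± 0.08) and Bmp1 (-0.44 ± 0.08), the procollagen C-proteinase, were higher in N_46.

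Among 25 measured activators and regulators of MMPs, 8 were higher in A_212 (against 18.3% of all genes) and 4 in N_46 (against 20.9%). The other 13 did not pass, and the median was -0.06. Thrombospondin 2 (Thbs2), a matricellular protein that binds Mmp2 and promotes its uptake through Lrp1, differed by 5.25 ± 0.12, next to 5.26 for Mmp2. Thbs1 (1.30 ± 0.09), the procollagen C-proteinase enhancer Pcolce (0.70 ± 0.08) and the endocytic receptor Lrp1 (0.45 ± 0.10) were also higher in A_212. The second enhancer gene Pcolce2 (-3.80 ± 0.09), the urokinase receptor Plaur (-1.57 ± 0.10), the MMP inducer basigin (Bsg, -0.38 ± 0.08) and syndecan 1 (Sdc1, -0.27 ± 0.07) were higher in N_46. Pcolce and Pcolce2 were listed here although the proteinase they enhance is Bmp1, counted above with the ADAM and ADAMTS genes. Sdc1 lost its call without A_212 replicate 1 (-0.22, adjusted p = 0.053) or N_46 replicate 3 (-0.26, adjusted p = 0.060). Furin, which activates the precursors of Mmp11 and Mmp14, differed by -0.22 ± 0.10 (adjusted p = 0.10) and did not pass.

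Of 25 measured matrix substrates, 14 were higher in A_212 (against 18.3% of all genes) and 3 in N_46 (against 20.9%). The other 8 did not pass, and the median was 0.39. Periostin (Postn, 5.14 ± 0.24), the basement membrane linker nidogen 1 (Nid1, 4.63 ± 0.12), the collagen gene Col3a1 (3.59 ± 0.11) and versican (Vcan, 2.53 ± 0.08) led those higher in A_212. Nidogen 2 (Nid2, -1.75 ± 0.19), the laminin gene Lama5 (-1.20 ± 0.10) and Col1a1 (-0.55 ± 0.08) were higher in N_46. The type IV collagen genes Col4a1 and Col4a2, substrates of the gelatinases, differed by 0.56 ± 0.07 and 0.98 ± 0.08.

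Transcription factors known to act on MMP promoters were mostly higher in N_46. Of 20 measured, 4 were higher in A_212 (against 18.3% of all genes), 12 in N_46 (against 20.9%) and 4 did not pass. Their median was -0.30. Etv5 (-2.08 ± 0.14), Ets2 (-1.92 ± 0.10) and Ets1 (-0.71 ± 0.08), all of the ETS family, and the AP-1 subunit Fosl1 (-1.54 ± 0.10) were lower in A_212. Snai1 (1.83 ± 0.10), a repressor of E-cadherin, Zeb2 (0.72 ± 0.13) and Twist1 (0.27 ± 0.08) were higher in A_212. Zeb1 (-0.57 ± 0.07, limma adjusted p = 8.5e-05) and Snai2 (-0.39 ± 0.08, limma adjusted p = 0.0024) were lower in A_212. Twist1 lost its call without A_212 replicate 3 (0.19, adjusted p = 0.056), N_46 replicate 1 (0.26, adjusted p = 0.062) or N_46 replicate 2 (0.26, adjusted p = 0.084). The AP-1 subunit Fos had values of 0.14, 3.37 and 2.98 in A_212, against -0.14, -0.42 and -0.28 in N_46. A_212 replicate 1 lay near N_46. This array was the lowest of its line for Mmp3 and Mmp13, and also for Mmp14, Mmp23, Timp1, Timp3 and Reck. For Mmp2, Mmp9, Mmp11 and Timp2 it was not the lowest. The margin was small for Mmp14 (0.06 against 0.35 and 0.08) and Timp1 (-0.005 against 0.07 and 0.005). For Timp3 the low value (-0.91) lay farther from N_46, not nearer to it. The share of all genes for which this array was the lowest was not counted. The part of Fos in these values was not tested. The Fos difference of 2.44 ± 0.64 (adjusted p = 0.012) did not pass with robust eBayes (adjusted p = 0.12), without A_212 replicate 2 (1.84, adjusted p = 0.052) or without A_212 replicate 3 (2.04, adjusted p = 0.067), nor against a 2-fold bound, and without A_212 replicate 1 it was 3.46 (adjusted p = 3.1e-08). Of the other AP-1 genes listed, Jun (-0.62), Jund (-0.53) and Fosl2 (-0.28, adjusted p = 0.045, with arrays of the lines overlapping) were lower in A_212 as well as Fosl1, while Junb (0.22, adjusted p = 0.18) and Fosb (-0.12, adjusted p = 0.23) did not pass in limma.

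Markers of cell types were counted in the same way, where 39.2% of all genes passed, 18.3% higher in A_212 and 20.9% higher in N_46. Among 14 mesenchymal and fibroblast markers, 8 were higher in A_212, 1 was higher in N_46 and 5 did not pass, with a median of 0.37 and mean centred values per array from 0.52 to 0.72 in A_212, against -0.66 to -0.54 in N_46. Among 8 pericyte and smooth muscle markers, 6 were higher in A_212 and 0 in N_46 in limma (6 and 0 at an unadjusted p under 0.05), with a median of 1.01 and array means from 0.51 to 0.66 in A_212, against -0.96 to -0.56 in N_46. The fibroblast list shares Col1a1, Col1a2, Col3a1, Dcn and Postn with the substrates and Twist1 with the transcription factors. Of 9 microglia and macrophage markers 1 passed in each direction, with array means from -0.08 to 0.02 in A_212, against 0.02 to 0.07 in N_46. Of 8 endothelial markers 3 passed in A_212 and 1 in N_46, with array means from 0.10 to 0.30 in A_212, against -0.22 to -0.18 in N_46. The part of these marker differences in the MMP and TIMP values was not tested. Among 10 neuronal markers 2 were higher in A_212, 1 was higher in N_46 and 7 did not pass, Npy among them (-0.05 ± 0.08), and among 8 astrocyte markers the counts were 1, 2 and 5. Because centring removes the level, the hypothalamic and neuronal origin of the lines could not be checked from the presence of any marker.

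The genes outside all lists whose 6 array values lay closest to those of Mmp2, by Euclidean distance among 12230 genes, were the small heat shock protein Hspb1 (distance 0.634, difference 4.81), thrombomodulin (Thbd, 0.700 and 4.80) and the glutamate transporter Slc1a6 (0.711 and 4.74). For Timp3 they were Trib3 (0.200 and -1.55), Shroom3 (0.211 and -1.40) and Sox11 (0.220 and -1.54). With 2 lines, this measure depends mostly on the size of the difference between them.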

How the data were processed

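RNA of 3 plates each of A_212 and N_46 was measured on 6 arrays of 22690 probe sets. The deposited log2 values were made by the authors with RMA (version not stated), per the submitters' processing notes. Every probe set had a median of 0 over the arrays within 1e-05, so the values had also been centred, a step not described in any label. Quantile normalisation within RMA hides differences in total RNA.

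Samples were grouped by the cell line that their titles name. Probe sets with 1 gene in the platform annotation (20380) were averaged into 12393 genes, those with several (691) or none (1555) and 64 controls were left out of the gene fit, and chromosomes came from RefSeq (GRCm38.p6). Differences were tested, two-sided, with lmFit and eBayes of limma 3.58.1 in R 4.3.3, with adjustment over all 12393 genes, or over 22626 probe sets that are not controls. The fit was also run on simulated independent normal values, which hold no outlying array and so cannot test the effect of one. Precision is limited by the number of arrays.

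The 10 genes and the lists were chosen with earlier results of these data known. All 10 are named, with up to 4 called genes each way per list and the 3 nearest genes to Mmp2 and Timp3. Furin, Col4a1, Col4a2, Jun, Junb, Jund, Fosb, Fosl2, Zeb1 and Snai2 were picked after their values were seen. The same holds for Tagln, Myl9, Cnn1, Acta2, Actg2, Rgs5, Des, Myh11, Npy and Tll1. So were the chromosome 9 run and the neighbours of TIMP genes. Alternatives were 2 array scalings, a replicate block, array weights, robust eBayes, plain probe sets, the median of probe sets, single probe sets, treat against 2-fold, and leaving out each array. Python 3.11.15 with pandas 2.3.3, numpy 2.4.6 and matplotlib 3.10.9 wrote tables and figures.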

Additional observations from a re-analysis of the deposited data

How the results depend on the processing

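Mmp2, Mmp3, Timp3 and Reck kept their direction and their call in all 14 gene-level alternatives, with differences from 5.15 to 5.32, 2.53 to 3.07, -1.56 to -1.42 and 2.10 to 2.31. Mmp23 did so in 13, from 1.20 to 1.41, and lost its call in treat against a 2-fold bound (adjusted p = 0.16). Timp1, which passed in none, turned to 0.012 with arrays set to the same median, to 0.082 with array weights and to 0.13 without N_46 replicate 1, with -0.11 as the lowest value when 1 array was left out. Mmp9, Mmp11, Mmp14 and Timp2, whose changed calls stand with their values above apart from those of Mmp14 and Timp2 lost in treat, kept their direction in all 14. Counts were most altered by treat, which called 406 of all genes and 4 of the 10, against 4853 and 7. Probe sets fitted one by one gave 8148 calls among 22626. Leaving out 1 array gave between 3903 and 5124 calls over all genes and between 5 and 8 among the 10. The replicate numbers did not pair the samples (correlations of deviations -0.03, -0.01 and 0.09, with 2 of 6 arrays correlating best with their own number), and a replicate block gave 4834 and 7 calls. Among 32 genes named from the lists, 414 of 444 values kept direction and call, 30 lost the call (20 of them in treat) and 0 turned. Another scaling moved the median difference of all genes by at most 0.03. Brightness could not be used as a filter or as a guide to reliability, since centring removed it.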

Other observations

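Each of Timp1, Timp3 and Timp4 lies inside a synapsin gene in the RefSeq annotation, and Timp2 overlaps Cep295nl. Synapsins coat synaptic vesicles. These neighbours were looked up after the TIMP values were seen. Syn1, which contains Timp1, had values of 0.31, 0.21 and 0.53 in A_212, against -0.35, -0.35 and -0.21 in N_46, a difference of 0.66 ± 0.09 (limma adjusted p = 0.00024), beside -0.02 for Timp1. Syn3, which contains Timp3, differed by -0.08 ± 0.07 (adjusted p = 0.41), beside -1.50 for Timp3. Syn2 differed by -0.14 ± 0.07 (adjusted p = 0.14) and Timp4 by -0.16, and neither passed. Cep295nl differed by 0.46 ± 0.11 (adjusted p = 0.0062), beside 0.37 for Timp2. The host gene and the nested TIMP thus differed in call for Timp1 and Timp3, and the difference between host and nested gene was itself not tested.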
